A study of Mus musculus with 36 samples.

Results

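The sarcomere and thin filament genes described here are 31 genes that encode troponins, tropomyosins, myosin light chains, titin, proteins bound to it, and proteins of the Z-disc. They were chosen by gene name. Each gene was represented by its brightest probe set, the one with the highest mean log2 value over 36 arrays. For Tnnt2 and Ldb3 another probe set had the higher mean on the linear scale. The 31 genes belong to 18194 genes with a probe set in the annotation used. Of these 31, 29 passed the filter on low values and were tested among 12626 genes. Tnni1 and Tnni2, the slow and fast skeletal troponin I genes, did not pass it.

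The signals come from Affymetrix Mouse Genome 430 2.0 arrays, with 1 RNA sample of mouse left ventricle on each. Double transgenic mice of a C57black background carried alphaMHC-Mer-Cre-Mer, a Cre recombinase that tamoxifen activates, together with an alphaMHC-floxed HRas-v12, MKK3bE or MKK7D transgene. HRas-v12 is an active form of the GTPase Ras, MKK3bE an active form of a kinase that activates p38, and MKK7D an active form of a kinase that activates JNK. The alphaMHC promoter directs both constructs to cardiac muscle cells. All mice, including non-transgenic littermates as controls, were given tamoxifen at 20 mg/kg on 3 days at an age of 12 weeks. A group with the recombinase alone was not analysed here.

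The HRas-v12 line had 2 female and 3 male hearts at the early time, 4 to 7 days after the first injection, and 3 of each sex at the late time, 2 to 4 weeks after it. The MKK3bE line had 2 female hearts early and 2 female and 3 male hearts late. Both lines were set against the same 3 female and 3 male control hearts, whose labels give no time point. The MKK7D line had 3 transgenic female hearts and 3 control female hearts at each time. Replicate numbers stand in the labels but animals are not named, so p-values measure the spread between these arrays, and the number of arrays limits the precision.

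The sarcomere is the contractile unit of striated muscle. Thin filaments of actin, tropomyosin and troponin slide along thick filaments of myosin when calcium binds troponin C, and titin spans from the Z-disc, where thin filaments are anchored, to the M-band, where thick filaments are crosslinked. In the mouse heart, fetal and slow or fast skeletal isoforms of several of these proteins are replaced by adult cardiac isoforms around birth, and return of fetal isoforms is a known feature of hypertrophied and failing hearts.

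Signals are given on the deposited linear scale, and changes are differences of log2(signal + 32) from 1 limma fit over all 36 arrays. With females and males in a comparison, each sex was compared with its own controls and the differences were averaged. Genes were called at a Benjamini-Hochberg adjusted p under 0.05 over all 12626 genes. Signals of different probe sets are not compared with each other.

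Some arrays went against their labels when probe sets for the estrogen receptor part of Mer-Cre-Mer (Esr1) and for sex-linked genes were read. Esr1 signals lay between 293.8 and 831.7 in the shared controls other than control female replicate 2, which had 7943. That array also had the lowest signal of the sex-linked gene Xist among the control females, 4032.9. It was not counted among the arrays in doubt. HRas-v12 female early replicate 3 had 687.6, HRas-v12 male late replicate 1 had 2915 and HRas-v12 male late replicate 3 had 1327, whereas the other transgenic arrays had at least 12437. MKK7D control female late replicates 8 and 9 had 106402 and 91291, and MKK7D control female early replicate 1 had the sex-linked signals of a male. Counts of members called that moved by over 1.5 times without these 6 arrays, or rest on one of them, are given with and without them, an alternative chosen after the data were seen.

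In HRas-v12 hearts at the early time, genes of the contractile apparatus were mostly lower than in controls. Of the 29 members tested, 17 fell and 3 rose, while 18.7% of all genes tested fell and 15.1% rose. In 8 members, the 6 adult thin filament and light chain genes, Mybpc3 and Ttn, every HRas-v12 array lay below every control array, as in 2.76% of all genes. The median log2 change was -0.46 over the members and -0.04 over all genes. Cmya5 and Lmod2 fell most, by 1.15 and 0.96, and the 3 that rose were Tpm2, Tpm3 and Flnc. In left ventricle tissue, fewer cells of a type and less RNA per cell cannot be told apart. The share of the summed signal that came from the 100 brightest probe sets was 6.04% to 7.68% in HRas-v12 early arrays and 8.06% to 9.54% in control arrays. When the arrays were scaled to 1 common distribution (quantile normalization), 11 members fell and 5 rose, with a median of -0.13 over the members and -0.03 over all genes. Fewer members were called without HRas-v12 female early replicate 1, when Tnni3, Tpm3, Tmod1, Nrap, Ldb3, Flnc and Myom2 lost their calls. That fit leaves 1 early female, replicate 3, which is in doubt. Its median log2 difference from the control females over the members was -0.19, against -0.72 in replicate 1. These losses therefore cannot show that the calls rest on replicate 1 alone. Without the 6 arrays in doubt more members were called, with replicate 1 as the only early female.

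**Figure D1:**
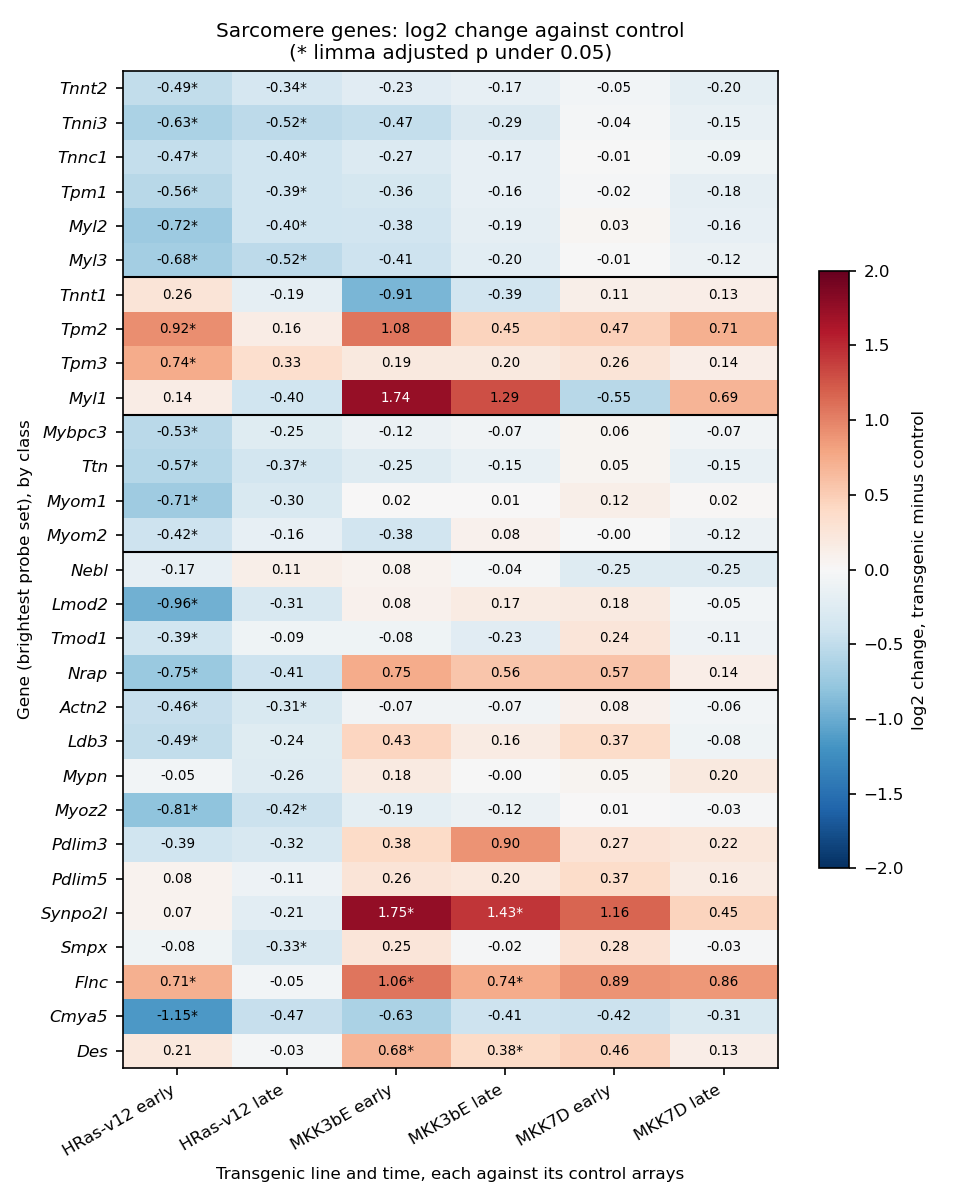
Log2 change of the 29 members tested (down the page, grouped by role) in 6 comparisons against control (across), in blue for lower and red for higher, with an asterisk where the adjusted p from limma was under 0.05. HRas-v12 early has 17 members lower and 3 higher, whereas the 2 MKK3bE columns have asterisks at Synpo2l, Flnc and Des. With quantile normalization the sign of Tnnt2 turned in both HRas-v12 columns and that of Actn2 turned in HRas-v12 late.

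All 6 adult thin filament and light chain genes fell in HRas-v12 early hearts, with log2 changes of -0.72 to -0.47. Myl2, the regulatory light chain of ventricular myosin, had signals of 101522, 160077, 100406, 115588 and 104981 in HRas-v12 early arrays, the 2 females before the 3 males, and of 172276 to 235318 with a median of 187846 in the 6 control arrays. Every HRas-v12 array lay below every control array. The log2 change was -0.72 ± 0.12 (SE), 1.65-fold lower, with an adjusted p of 0.000118. Tnnt2, the troponin subunit that binds tropomyosin, had 121087, 161514, 137336, 155555 and 131417 in HRas-v12 early arrays and 179471 to 234424 with a median of 191571 in controls. These groups did not overlap either, and the log2 change was -0.49 ± 0.10 (adjusted p 0.000664). Myl3, the ventricular essential light chain, changed by -0.68 (adjusted p 0.000990) and Tnni3, the inhibitory cardiac troponin I, by -0.63 (adjusted p 0.00235). Tpm1, the main tropomyosin of the heart, changed by -0.56 (adjusted p 0.000775) and Tnnc1, the calcium-binding troponin C, by -0.47 (adjusted p 0.00149).

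The call of these 6 genes depended on how arrays were scaled. Among the genes tested their brightness ranks were 1, 2, 5, 10, 18 and 21. Quantile normalization gives the brightest ranks of every array the same values. Much of a joint fall of such genes is then removed by construction, so this alternative cannot decide whether they fell together. With quantile normalization only Myl2 of the 6 was called lower, at -0.26, the median over the 6 was -0.14, and the sign of Tnnt2 turned to 0.054. The summed signal of the cardiac muscle marker list, which holds Tnnt2 and Myl2, was 789821 to 993177 in HRas-v12 early arrays and 1078099 to 1471835 in control arrays. Of its 8 genes, 7 were called lower. Their part in the result was not tested.

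The same 6 genes made up most of the members called in HRas-v12 hearts at the late time. There, 10 of the 29 members fell and 0 rose in limma, while 4.66% of all genes fell and 4.86% rose, and 17 members had an unadjusted p under 0.05 in either direction. Tnnc1 had 97760.3 to 147614 with a median of 121736 in the 6 HRas-v12 late arrays and 150451 to 187995 with a median of 157712 in the 6 controls. Its groups did not overlap, and it changed by -0.40 ± 0.10 (adjusted p 0.0198). Ttn, the giant spring of the sarcomere, had 110951 to 144222 with a median of 129169 in HRas-v12 late arrays and 147065 to 197358 with a median of 163238 in controls, also without overlap, and changed by -0.37 (adjusted p 0.0226).

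For the further late calls the ranges were closer or overlapped. Tnnt2 had 137638 to 173905 with a median of 159765 in HRas-v12 late arrays and 179471 to 234424 with a median of 191571 in controls, a change of -0.34 (adjusted p 0.0277) without overlap, so that 3 members were wholly below the controls, as were 0.832% of all genes. Tnni3 had 66854 to 157380.4 with a median of 122302 in HRas-v12 late arrays and 155126 to 202633 with a median of 163463 in controls, a change of -0.52 (adjusted p 0.0261). The highest HRas-v12 array of Tnni3 lay above the lowest control array. Myl3 had 90142 to 190959.6 with a median of 152177 in HRas-v12 late arrays and 188999.7 to 254098 with a median of 201674 in controls, a change of -0.52 (adjusted p 0.0246). Tpm1 had 111578 to 163689 with a median of 138065 in HRas-v12 late arrays and 152387 to 216954 with a median of 177458 in controls, a change of -0.39 (adjusted p 0.0278). In Myl3 and Tpm1 too, the highest HRas-v12 arrays lay within the control range. Myl2 had 121157 to 177344 with a median of 141877 in HRas-v12 late arrays and 172276 to 235318 with a median of 187846 in controls, a change of -0.40 (adjusted p 0.0291). Actn2, the alpha-actinin that crosslinks thin filaments at the Z-disc, had 75115 to 98842 with a median of 82208 in HRas-v12 late arrays and 91164 to 115369.8 with a median of 105287 in controls, a change of -0.31 (adjusted p 0.0354). Here too the highest HRas-v12 arrays reached the lowest controls. Smpx, a small protein of the costamere, and Myoz2 completed the 10, with -0.33 (adjusted p 0.0362) and -0.42 (adjusted p 0.0468).

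None of these late calls was kept with quantile normalization, where the count was 0 and the values of Tnnt2 and Actn2 were 0.012 and 0.014. For the brightest genes this alternative has the same limit as at the early time. The count was also 0 without the 6 arrays in doubt, 2 of which are HRas-v12 male late arrays, and 0 when limma was fitted to the HRas-v12 late and control arrays alone, where 0 of all 12626 genes were called. Without HRas-v12 female late replicate 3 the count was 0 too. Among the male late arrays, replicate 3, in doubt, lay furthest below the control males, with a median log2 difference of -0.42 over the members. Replicate 1, also in doubt, had -0.03, and replicate 4, with an Esr1 signal of 155949, had -0.09. The fit without the arrays in doubt thus left out the male late array that differed most and kept replicate 4 alone.

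**Figure D2:**
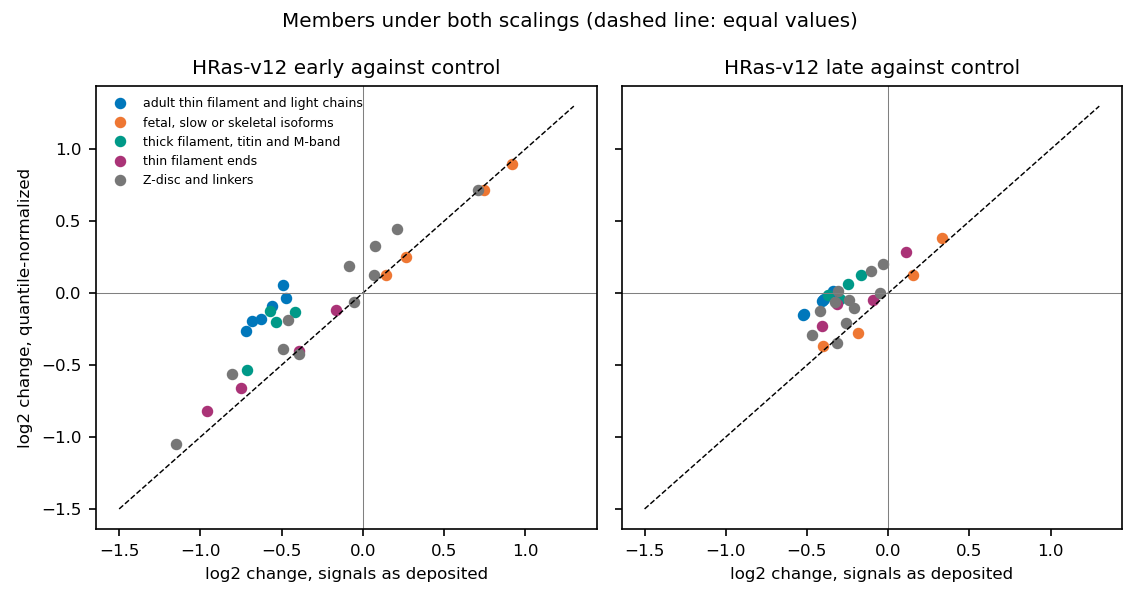
Log2 change of each member with signals as deposited (x axis) against the log2 change with quantile normalization (y axis), for HRas-v12 early and HRas-v12 late against control, coloured by role. Adult thin filament and light chain genes lie between -0.72 and -0.47 on the x axis at the early time and have a median of -0.14 on the y axis, where the sign of Tnnt2 turned, as it did at the late time together with that of Actn2. Lmod2 and Cmya5 keep values of -0.82 and -1.05 at the early time.

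In MKK3bE hearts the adult thin filament and light chain genes were not called. Their log2 changes lay between -0.47 and -0.23 at the early time and between -0.29 and -0.16 at the late time. In MKK7D hearts they lay between -0.05 and 0.03 early and between -0.20 and -0.09 late, again with none called in limma. In MKK3bE early hearts Tnni3, Tnnc1, Tpm1, Myl2 and Myl3 lay wholly below the 3 control females, while Tnnt2 overlapped them. In MKK3bE late hearts Tnni3 alone of these genes lay wholly below the controls. Among all genes, 22.6% lay wholly below the controls in MKK3bE early hearts and 5.69% in MKK3bE late hearts.

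Of the 4 fetal, slow and skeletal isoforms tested, 2 rose and 0 fell in HRas-v12 early hearts. Tpm3, a tropomyosin of slow skeletal muscle that also has non-muscle forms, had 20571, 9512, 33304, 24274 and 26282 in HRas-v12 early arrays and 9482 to 15421 with a median of 11319.8 in controls. The array in doubt, female early replicate 3, was the lowest of the 5 and the other 4 lay above all controls. The log2 change was 0.74 ± 0.16, 1.68-fold higher, with an adjusted p of 0.00127. Tpm2, the beta-tropomyosin of fetal heart, skeletal and smooth muscle, had 10013, 10276, 17258, 7366 and 19151 in HRas-v12 early arrays and 4167 to 8729 with a median of 6247 in controls. Of the 5 HRas-v12 arrays, 4 lay above every control, and male early replicate 2 lay within the control range. The log2 change was 0.92 ± 0.26, 1.89-fold higher (adjusted p 0.00872). With quantile normalization both were called higher, at 0.72 and 0.90. With the mean of a gene's probe sets the Tpm2 call was lost, at 0.72 (adjusted p 0.0573). Tpm2 also stands in the smooth muscle marker list, in which 2 of 7 genes tested rose and 1 fell in the same hearts, and the part of that list in the result was not tested.

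In the other comparisons against control neither tropomyosin was called. In HRas-v12 late arrays Tpm3 had 9568 to 21766 and Tpm2 4598 to 10450.1, with changes of 0.33 (adjusted p 0.155) and 0.16 (adjusted p 0.723). Tpm2 had 13903 and 12276 in MKK3bE early arrays and 8292, 6193 and 4595 in control females, without overlap, a change of 1.08 (adjusted p 0.0982). In MKK7D late arrays Tpm2 had 20294, 18466 and 20659 and in their controls 15888, 16426 and 6803, a change of 0.71 (adjusted p 0.990). The MKK7D late arrays lay above their controls, of which replicate 10 was the lowest.

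Tnnt1, the slow skeletal troponin T, and Myl1, the fast skeletal and fetal essential light chain, were not called in any comparison against control. Tnnt1 had 4172, 2050.4, 2956, 3629.8 and 3456 in HRas-v12 early arrays and 1991 to 3098 with a median of 2679 in controls, which overlapped. It changed by 0.26 in HRas-v12 early hearts and by -0.91 in MKK3bE early hearts (adjusted p 0.0568 in limma). Its signals were 1089.9 and 1778 in MKK3bE early arrays and 2404, 2864 and 2673 in the 3 control females, so the MKK3bE arrays were the lower ones. Myl1 had 23493, 34227, 6115, 18390.1 and 18329 in HRas-v12 early arrays, spread over the control range and beyond it, with a change of 0.14. It had 36640.4 and 94476 in MKK3bE early arrays and 21654, 28649, 105219.7, 78969 and 43315 in MKK3bE late arrays, the 2 females before the 3 males, against 7765 to 28419 with a median of 18566 in controls. The changes were 1.74 (adjusted p 0.179) early and 1.29 (adjusted p 0.117) late, with males above controls and females inside or close to the control range at the late time. The atrial marker list, which holds Myl1, varied widely among the controls themselves, with Myl7 between 1073 and 49696 and Sln between 80.1 and 19544. Its summed signal was 207535 to 244740 in MKK3bE early arrays, 133640 to 355878 in MKK3bE late arrays and 27530 to 252880 in controls, and 1 of its 5 genes tested rose in MKK3bE late hearts. The part of atrial tissue in the Myl1 values was not tested.

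Tnni1 had signals of 50.8 to 4128 over the 36 arrays and Tnni2, on the brightest of its 3 probe sets, of 34.1 to 738.5. The highest Tnni1 signal was that of HRas-v12 female late replicate 4. Tested without the filter, neither gene was called in a comparison against control, and the Tnni1 change in MKK3bE early hearts was 2.63 with an adjusted p of 0.0652. The skeletal muscle markers Myh1, Myh2, Myh4, Mylpf, Tnnt3, Tnnc2, Actn3 and Myog all had their probe sets below the filter. The summed signal of the skeletal muscle marker list was 54702 to 139602 in HRas-v12 early arrays, 53874 to 156341 in HRas-v12 late arrays, 98512 to 111624 in MKK3bE early arrays, 108929 to 153345 in MKK3bE late arrays and 153259 to 178382 in controls. Of its 5 genes tested, 2 were called lower in HRas-v12 early hearts, 1 in HRas-v12 late hearts and 0 in MKK3bE hearts, where 2 were called lower at each time without the 6 arrays in doubt. With so many of its genes below the filter, this sum rests on few genes, Ckm among them, and need not follow skeletal muscle content. The part of this list in the isoform values was not tested.

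The 4 genes of the thick filament, titin and the M-band all fell in HRas-v12 early hearts, with log2 changes of -0.71 to -0.42. Myom1, a myomesin that links thick filaments at the M-band, had 45894, 77989.8, 36419.5, 57301 and 39716 in HRas-v12 early arrays and 75054 to 91604 with a median of 86449.9 in controls. Female early replicate 3 lay inside the control range and the other 4 lay below it, a change of -0.71 ± 0.12 (adjusted p 0.000163). Ttn had 102124, 136795, 99324, 110375 and 103037 in HRas-v12 early arrays and 147065 to 197358 with a median of 163238 in controls, without overlap, and changed by -0.57 ± 0.10 (adjusted p 0.000213). Mybpc3, the cardiac myosin binding protein C, had 84127, 114181, 95549, 87563 and 91823 in HRas-v12 early arrays and 129609.7 to 144434 with a median of 137062 in controls. These did not overlap, and the change was -0.53 ± 0.10 (adjusted p 0.000252). Myom2, the second myomesin, changed by -0.42 (adjusted p 0.0168). With quantile normalization 3 of the 4 were called lower, Myom1 at -0.53, Mybpc3 at -0.20 and Ttn at -0.13. At the late time Ttn was the only one of the 4 called in HRas-v12 hearts, and none was called in MKK3bE or MKK7D hearts at either time.

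Of the 4 genes for proteins at the thin filament ends, 3 fell in HRas-v12 early hearts. Lmod2, a leiomodin that lets thin filaments lengthen at their pointed ends, had 40889, 70726, 20281, 25573 and 29794 in HRas-v12 early arrays and 58663 to 89302 with a median of 73291 in controls. The 3 males and female early replicate 1 lay below every control, and female early replicate 3 lay among them. The change was -0.96 ± 0.14, 1.95-fold lower, with an adjusted p of 3.08e-05, the smallest among the members in that comparison. Tmod1, the tropomodulin that caps the same ends, changed by -0.39 (adjusted p 0.0149). Nrap, a protein of myofibril assembly and the intercalated disc, changed by -0.75 (adjusted p 0.0120), and Nebl, the nebulette that binds thin filaments at the Z-disc, by -0.17 without a call. With quantile normalization the same 3 genes were called lower, at -0.82, -0.40 and -0.66.

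**Figure D3:**
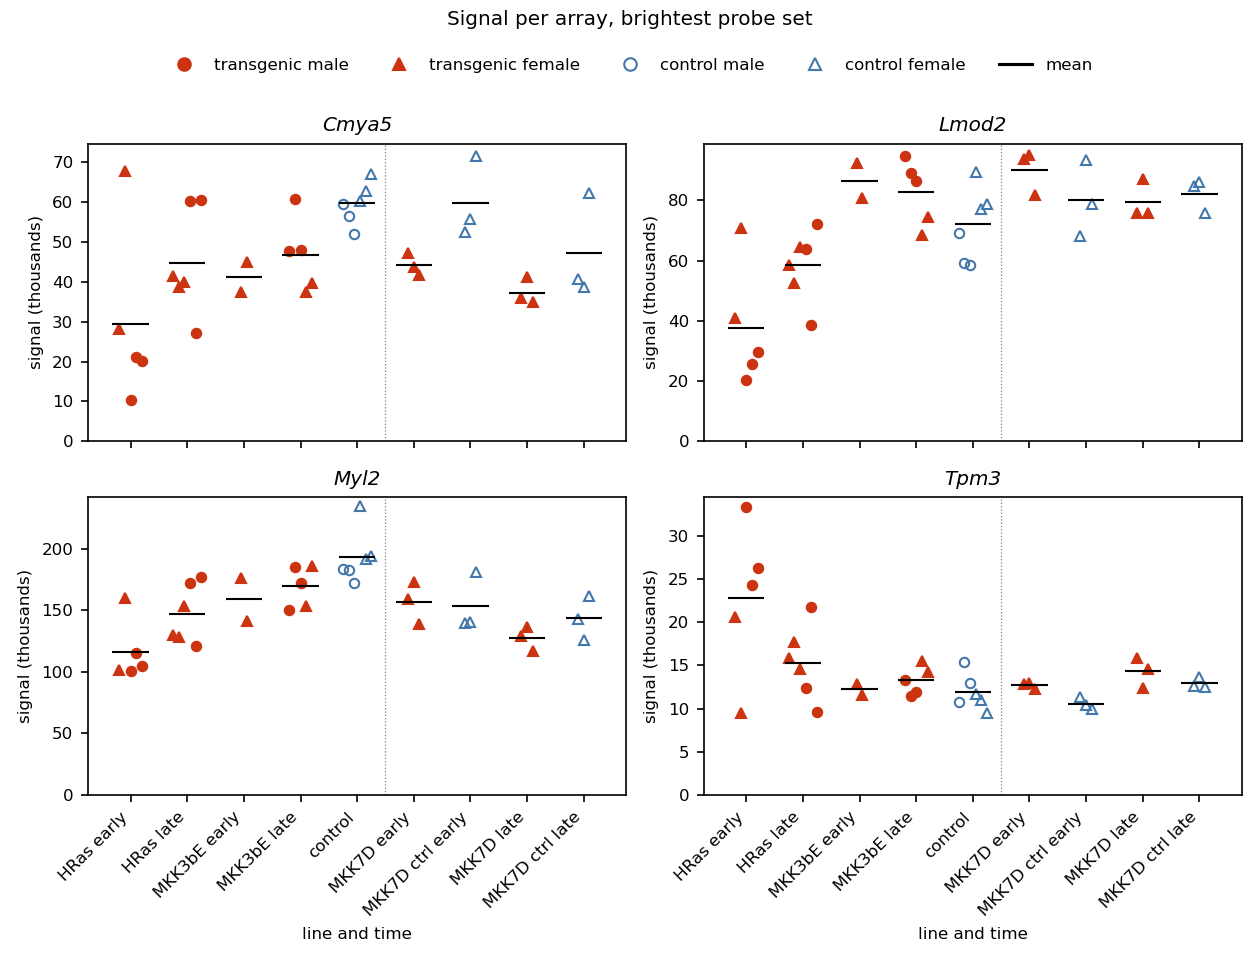
Probe set signal (linear scale) of Cmya5, Lmod2, Myl2 and Tpm3 on each array, by line and time, with symbols for sex, a black line for the group mean and a dotted line before the MKK7D groups, which have controls of their own. HRas-v12 early arrays of Cmya5, Lmod2 and Myl2 lie mostly below the controls, and 4 of 5 Tpm3 arrays lie above them.

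The 11 Z-disc and linker genes moved both ways in HRas-v12 early hearts, where 4 fell and 1 rose. Cmya5, or myospryn, a linker that binds desmin and other Z-disc proteins, had 28156, 67749, 10341, 21168 and 20253 in HRas-v12 early arrays and 51895 to 67179.8 with a median of 59876 in controls. Female early replicate 3 exceeded every control while the other 4 lay below all of them. The change was -1.15 ± 0.21, 2.22-fold lower (adjusted p 0.000204), and without the 6 arrays in doubt it was -1.47 (adjusted p 9.88e-08). Myoz2, or calsarcin-1, a Z-disc protein that binds the phosphatase calcineurin, had 56192, 111362, 49315, 67022 and 50809 in HRas-v12 early arrays and 110469.9 to 124219 with a median of 114603 in controls. Again only female early replicate 3 reached the control range, and the change was -0.81 ± 0.14 (adjusted p 0.000198). Ldb3, also called Cypher or ZASP, changed by -0.49 (adjusted p 0.00356) and Actn2 by -0.46 (adjusted p 0.000919). With quantile normalization 4 of the 11 fell and 3 rose, as Des at 0.45 and Pdlim5 at 0.33 were called higher besides Flnc.

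Flnc, filamin C, a crosslinker of actin at the Z-disc and the cell membrane, had 19644, 12663, 43049, 63365 and 44030.2 in HRas-v12 early arrays and 12446 to 24476 with a median of 16879.8 in controls. The 3 males lay above every control and both females lay within the control range. The change over both sexes was 0.71 ± 0.19 (adjusted p 0.00480). The male change exceeded the female change by 1.88 ± 0.37 (adjusted p 0.0174), the only member called of 29 where 1.10% of all genes were called. That call was lost without female early replicate 3, and without the 6 arrays in doubt the count was 0. In the late comparison of the sexes in HRas-v12 hearts and in that in MKK3bE hearts, 0 members were called by limma, with 3 and 2 members at an unadjusted p under 0.05.

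In MKK3bE hearts 3 Z-disc and linker genes were higher at both times. At each time 3 of 29 members rose and 0 fell, where 3.48% of all genes rose and 2.78% fell early, and 5.06% rose and 5.39% fell late. The 3 members were Synpo2l, Flnc and Des at both times. Members with an unadjusted p under 0.05 numbered 11 early and 6 late in limma. The medians over the members were 0.02 early and -0.02 late, against -0.02 and -0.01 over all genes. With 1 array left out at a time, Synpo2l kept its call throughout. The count was 1 without control female replicate 2 at the early time and 1 without MKK3bE female late replicate 3 at the late time. It was 8 early and 7 late without the 6 arrays in doubt, none of which is an MKK3bE or shared control array, and 9 early and 8 late when limma was fitted to the groups compared alone.

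The sequences before the start sites of these 3 genes are shown because they rose together, with that of Myoz2, which fell in HRas-v12 hearts at both times. Most other members called at the late time had also fallen early, and the late Myoz2 call was lost in 16 of 21 alternatives. Each run is the 250 bases before a start site in RefSeq, build GRCm38.p6, on the strand of the gene, with capitals where a motif matched. A first Flnc promoter, at chr6:29432903-29433152 on the plus strand, held no match of the motifs searched and is not printed. The windows of Cmya5 and Lmod2, which fell most in HRas-v12 early hearts, held no match either and are not printed. Synpo2l has promoters at chr14:20668355-20668604 and chr14:20664575-20664824, both on the minus strand. The others are the second promoter of Flnc at chr6:29433006-29433255 on the plus strand, that of Des at chr1:75360042-75360291 on the plus strand and that of Myoz2 at chr3:123034988-123035237 on the minus strand.
Synpo2l promoter 1: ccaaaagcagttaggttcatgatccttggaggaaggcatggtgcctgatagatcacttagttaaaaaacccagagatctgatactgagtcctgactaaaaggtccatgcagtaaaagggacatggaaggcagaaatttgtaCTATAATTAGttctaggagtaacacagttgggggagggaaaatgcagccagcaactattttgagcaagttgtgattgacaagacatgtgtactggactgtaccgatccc
Synpo2l promoter 2: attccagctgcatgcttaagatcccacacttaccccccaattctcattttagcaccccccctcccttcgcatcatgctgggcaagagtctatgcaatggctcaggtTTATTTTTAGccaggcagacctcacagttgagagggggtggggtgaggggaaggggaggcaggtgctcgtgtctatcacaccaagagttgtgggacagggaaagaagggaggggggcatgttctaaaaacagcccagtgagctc
Flnc promoter 2: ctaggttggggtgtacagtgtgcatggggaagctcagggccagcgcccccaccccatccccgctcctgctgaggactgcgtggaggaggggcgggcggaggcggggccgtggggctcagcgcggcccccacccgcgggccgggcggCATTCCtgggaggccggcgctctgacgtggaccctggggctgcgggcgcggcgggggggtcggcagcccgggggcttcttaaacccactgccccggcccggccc
Des: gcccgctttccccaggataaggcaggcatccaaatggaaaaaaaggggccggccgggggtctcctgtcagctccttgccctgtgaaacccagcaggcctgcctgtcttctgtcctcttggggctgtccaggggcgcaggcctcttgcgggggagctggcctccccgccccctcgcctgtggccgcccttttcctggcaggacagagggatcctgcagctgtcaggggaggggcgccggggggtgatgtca
Myoz2: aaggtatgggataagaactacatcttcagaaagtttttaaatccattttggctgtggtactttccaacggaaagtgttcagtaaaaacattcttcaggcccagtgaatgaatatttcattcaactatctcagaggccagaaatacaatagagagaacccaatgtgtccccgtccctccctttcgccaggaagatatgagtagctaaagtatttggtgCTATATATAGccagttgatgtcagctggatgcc

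The capitals mark 1 MEF2 box in each Synpo2l promoter and in that of Myoz2, and 1 MCAT motif in the second Flnc promoter. Both strands were searched for the MCAT motif CATTCC, the AP-1 motif TGANTCA, the MEF2 box and the CArG box, and no match lay in the Des window. Of 32851 promoters of the same length, 2.92% held a MEF2 box, 12.6% an MCAT motif, 1.47% a CArG box and 6.75% an AP-1 motif. Of the 31 members, 29 had a promoter in this set, which was searched without regard to the filter on low values. Of their 40 promoters, 5 held a MEF2 box, 10 an MCAT motif, 5 a CArG box and 2 an AP-1 motif. The members with a MEF2 box were Mybpc3, Myoz2, Synpo2l and Ttn. Mybpc3 and Ttn also fell in HRas-v12 early hearts, and their windows are not printed. A match describes the letters of the window only.

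Synpo2l, a Z-disc protein that binds alpha-actinin, had 129942 and 108136 in MKK3bE early arrays and 36908, 37745 and 31231 in control females. Both MKK3bE arrays lay well above all controls. The change was 1.75 ± 0.30, 3.37-fold higher (adjusted p 0.00128). At the late time it had 83750.3, 99537, 114500.3, 95162 and 91862 in MKK3bE arrays, females before males, and 31231 to 40976 with a median of 35896 in controls. No late MKK3bE array came near the control range, and the change was 1.43 ± 0.20, 2.70-fold higher (adjusted p 7.49e-05). Synpo2l averaged 96962 ± 11380 in MKK3bE late arrays (SD, n = 5), 41325 ± 13273 in HRas-v12 early arrays (SD, n = 5) and 35561 ± 3758 in controls (SD, n = 6). In HRas-v12 hearts it was called at neither time, with changes of 0.07 early and -0.21 late.

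Flnc had 37812 and 39656 in MKK3bE early arrays and 22447, 18234 and 15526 in control females, and 26148, 28301, 34156, 27069 and 28331 in MKK3bE late arrays against 12446 to 24476 with a median of 16879.8 in controls. All MKK3bE arrays lay above all controls. The changes were 1.06 ± 0.28 (adjusted p 0.0217) early and 0.74 ± 0.19 (adjusted p 0.0127) late. Without MKK3bE female late replicate 3 the late adjusted p was 0.0634, and the early call was lost without control female replicate 1 or 2 and without either MKK3bE array. Des, desmin, the intermediate filament that ties Z-discs together, had 124800.2 and 95806 in MKK3bE early arrays and 70515, 78263 and 57614 in control females. It had 76709, 85109, 104437, 89743 and 88396 in MKK3bE late arrays and 57614 to 78263 with a median of 66623 in controls. The early groups did not overlap, and 1 late female lay just within the control range. The changes were 0.68 ± 0.16 (adjusted p 0.0114) early and 0.38 ± 0.11 (adjusted p 0.0230) late. Both Des calls were lost when the mean of its probe sets was taken, at 0.47 early and 0.20 late, and without control female replicate 2. The early one was also lost without MKK3bE female early replicate 1, and the late one without either late MKK3bE female or MKK3bE male late replicate 2.

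**Figure D4:**
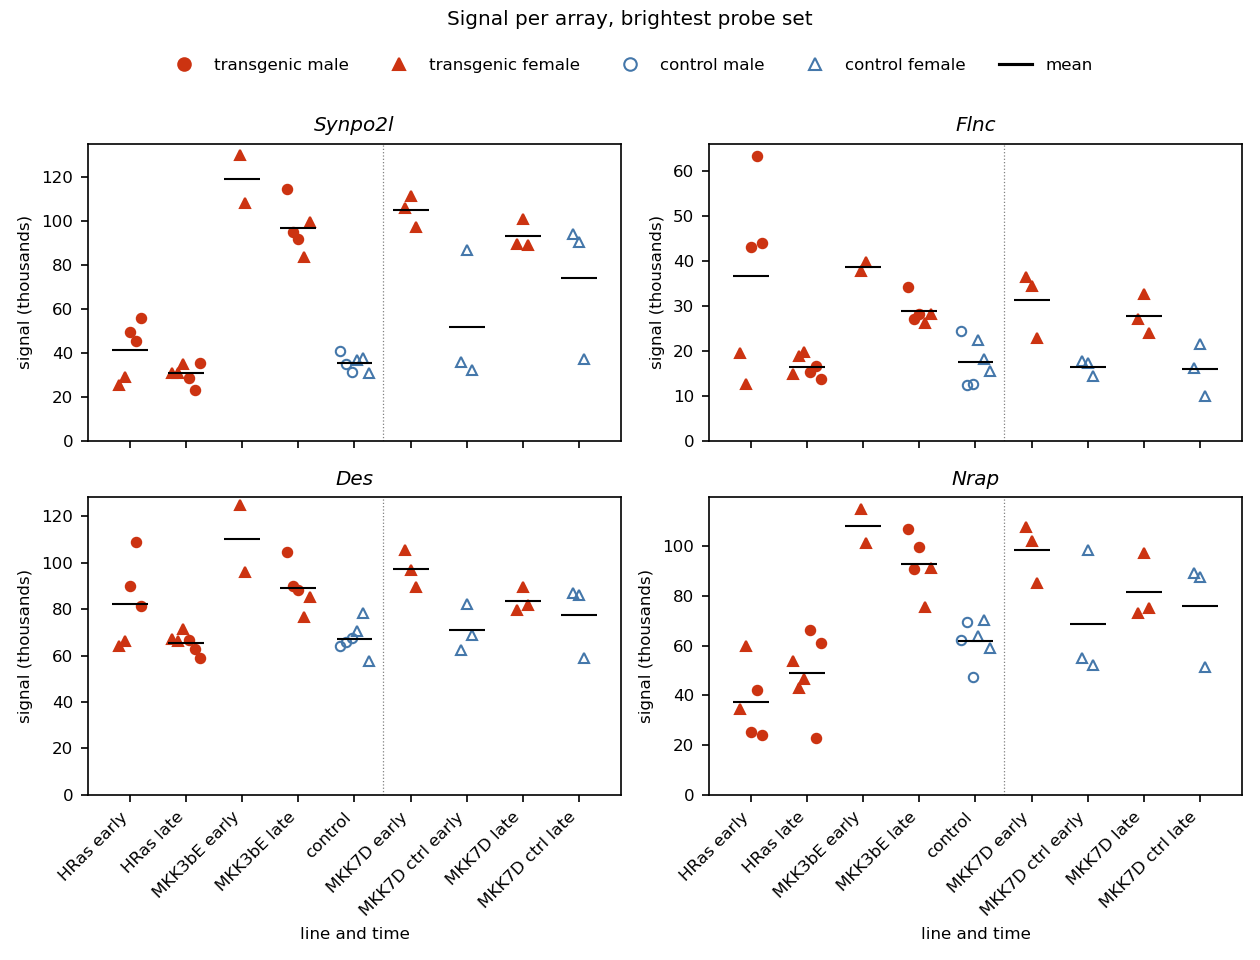
Probe set signal (linear scale) of Synpo2l, Flnc, Des and Nrap on each array, drawn in the same way as for the contractile genes. Synpo2l and Flnc lie above the shared controls in every MKK3bE array, and the MKK7D controls of Synpo2l are split between 36072, 87008 and 32564 early and 94203, 90432 and 37304 late.

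Nrap and Pdlim3 did not pass the threshold in MKK3bE hearts. Pdlim3, or ALP, a PDZ and LIM domain protein of the Z-disc, had 14008, 9772, 15656, 6181 and 13418 in MKK3bE late arrays and 3187 to 10032 with a median of 5969 in controls, with a change of 0.90 (adjusted p 0.133). Its controls spread widely and the groups overlapped. Nrap had 75400.0, 91272, 106811, 90707 and 99714 in MKK3bE late arrays and 47403 to 70329 with a median of 62954 in controls, a change of 0.56 (adjusted p 0.113), and every MKK3bE array lay above every control. Groups that did not overlap were common in these comparisons. In MKK3bE early hearts 10 members lay entirely above and 9 entirely below the 3 control females, as did 19.9% and 22.6% of all genes, and late 3 lay above and 1 below, as did 4.39% and 5.69%. Mypn, the titin and nebulin binding protein myopalladin, was called in no comparison against control, with changes of -0.26 to 0.20. The summed fibroblast markers were 537315 to 635599 in MKK3bE early arrays, 347460 to 486371 in MKK3bE late arrays and 220233 to 289703 in controls, with 5 of 11 genes called higher at each time. Macrophage markers had sums of 65208 to 120608 in MKK3bE early arrays, 89441 to 135973 in MKK3bE late arrays and 62806 to 94482 in controls, with 0 of 10 called by limma at either time. Without the 6 arrays in doubt, 7 fibroblast markers were called higher early and 9 late, and 1 macrophage marker was called lower early and 6 higher late. Whether they bear on the Synpo2l, Flnc and Des values was not tested.

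In MKK7D hearts 0 of 29 members were called at either time by limma, where 0.135% of all genes were called early and 0% late. Members with an unadjusted p under 0.05 numbered 6 early and 1 late. Synpo2l had 105786, 111635 and 97308 in MKK7D early arrays and 36072, 87008 and 32564 in their controls, a change of 1.16 ± 0.27 (adjusted p 0.0631). Control female early replicate 2 was close to the transgenic arrays and the other 2 controls were not. Its Esr1 signal was 3506, so it was not among the arrays in doubt. At the late time Synpo2l had 89508, 101132 and 89086 in MKK7D arrays and 94203, 90432 and 37304 in their controls, a change of 0.45 (adjusted p 0.999). The 2 high controls are replicates 8 and 9, whose Esr1 signals went against their label, and replicate 10 had an Esr1 signal of 953.3.

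Flnc had 36516, 34372 and 22921 in MKK7D early arrays and 17699, 17341 and 14554 in their controls, and 27020.4, 32562 and 23907 in MKK7D late arrays against 16219.9, 21620.1 and 9957. Neither pair of groups overlapped, and the changes were 0.89 (adjusted p 0.116) and 0.86 (adjusted p 0.647). Des had 105530.1, 96634 and 89612 in MKK7D early arrays and 62537, 82315 and 68693 in their controls, a change of 0.46 (adjusted p 0.180). At the early time 7 members lay wholly above and 1 wholly below their controls, as did 11.3% and 12.1% of all genes, and at the late time Tpm2 and Flnc lay wholly above, as did 6.98%. Without the 6 arrays in doubt, Synpo2l was called early, at 0.98 (adjusted p 0.0415). Under the same setting 3 members were called late, Synpo2l at 1.32 (adjusted p 0.0135), Flnc at 1.47 (adjusted p 0.0108) and Pdlim5 at 0.58 (adjusted p 0.0401). Only 1 late control array, replicate 10, then stood against 3 transgenic arrays, and it was taken to vary like the other groups.

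Between the late and early times of the HRas-v12 line, 4 of 29 members differed, 3 higher and 1 lower at the late time, where 6.91% of all genes were higher and 4.67% lower. Lmod2 was higher at the late time by 0.65 (adjusted p 0.00349), Cmya5 by 0.68 (adjusted p 0.0304) and Myom1 by 0.42 (adjusted p 0.0288), while Flnc was lower by 0.76 (adjusted p 0.00982). Cmya5 averaged 44695 ± 13184 late (SD, n = 6) and 29533 ± 22287 early (SD, n = 5), against 59706 ± 5223 in controls (SD, n = 6). The share of members is near that of all genes. The count was 9 with quantile normalization. It was lower without HRas-v12 female early replicate 1, which leaves replicate 3, in doubt, as the only early female. It was higher without the 6 arrays in doubt, which leaves replicate 1 as the only early female. In the MKK3bE line 0 members differed between the times in limma (2 had an unadjusted p under 0.05), and 0.00792% of all genes were called. The MKK7D change did not differ between the times for any member in limma (0 had an unadjusted p under 0.05), with 0.0158% of all genes called.

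The HRas-v12 and MKK3bE hearts were also set against each other directly, since both lines share their controls. At the early time, in females, 4 of 29 members were lower in HRas-v12 hearts and 0 higher, where 1.35% of all genes were lower and 0.451% higher. Synpo2l differed by -2.11 (adjusted p 0.00107), Flnc by -1.29 (adjusted p 0.0224), Des by -0.75 (adjusted p 0.0198) and Ldb3 by -0.79 (adjusted p 0.0391). The Ldb3 value was 0.0033 when the probe set with the highest mean on the linear scale was taken for each gene. This comparison holds 2 arrays of each line, and HRas-v12 female early replicate 3 is 1 of them. The count was 6 without that array, 1 without MKK3bE female early replicate 1 and 13 without the 6 arrays in doubt. In both fits without HRas-v12 female early replicate 3, HRas-v12 female early replicate 1 stands alone and was taken to vary like the other groups. The same holds for MKK3bE female early replicate 2 in the fit without MKK3bE female early replicate 1. At the late time 5 of 29 were lower in HRas-v12 hearts, where 2.04% of all genes were lower and 1.92% higher. Synpo2l differed by -1.64 (adjusted p 1.41e-05), Nrap by -0.96 (adjusted p 0.0129), Flnc by -0.79 (adjusted p 0.0142), Lmod2 by -0.48 (adjusted p 0.0430) and Des by -0.41 (adjusted p 0.0236). Nrap had 22915 to 66522 with a median of 50104 in HRas-v12 late arrays and 75400.0, 91272, 106811, 90707 and 99714 in MKK3bE late arrays, so that every HRas-v12 array lay below every MKK3bE array. The late count was 1 without MKK3bE female late replicate 3, when Synpo2l alone was called, 7 without HRas-v12 male late replicate 4 and 3 with quantile normalization.

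Pdlim5, or ENH, a PDZ and LIM domain protein of the Z-disc with long and short splice forms, gave different values on different probe sets. Its brightest probe set, 1429783_at, was called in no comparison, with changes of 0.08 and -0.11 in HRas-v12 early and late hearts and 0.26 and 0.20 in MKK3bE early and late hearts. The other 6 Pdlim5 probe sets above the filter rose in HRas-v12 early hearts, all 6 being called, with changes of 0.81 to 1.72. In HRas-v12 late hearts 5 of the 6 were called, with changes of 0.52 to 1.60. In MKK3bE hearts 5 of 6 were called at each time, with changes of 1.00 to 2.20 early and 0.60 to 1.46 late. In MKK7D hearts 0 of 6 were called at either time, with changes of 0.26 to 0.66 early and -0.48 to 0.13 late. Some of the HRas-v12 early calls were lost without HRas-v12 female early replicate 1, which leaves replicate 3, in doubt, as the only early female. Without the 6 arrays in doubt all 6 early calls were kept, while only 2 of the late ones were, 1422863_s_at at 0.75 and 1450786_x_at at 1.02. Of the 5 late calls, 2 were lost without HRas-v12 female late replicate 3 and 2 without HRas-v12 male late replicate 3. In MKK3bE hearts all 5 early calls were lost without either MKK3bE array, and all 5 late calls without MKK3bE female late replicate 3. These probe sets were chosen after their values were seen, and which transcripts each one reads is not stated in the annotation used. Over all 27022 probe sets, 12.9% were called higher in HRas-v12 early hearts, 5.84% in HRas-v12 late hearts, 2.52% in MKK3bE early hearts, 3.96% in MKK3bE late hearts, 0.0999% in MKK7D early hearts and 0% in MKK7D late hearts.

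The probe set 1421413_a_at had 52204, 34035, 70861, 76489.5 and 62376 in HRas-v12 early arrays and 24172 to 39015 in controls. The 3 males and female early replicate 1 lay above all controls, and female early replicate 3 lay among them. Its change was 0.81 (adjusted p 0.000351 over all probe sets). The probe set 1450786_x_at had 5883, 2103, 12226, 15900.3 and 9627 in HRas-v12 early arrays and 1531 to 2436 in controls. It changed by 1.71 (adjusted p 0.00132), and again only female early replicate 3 lay within the control range.

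**Figure D5:**
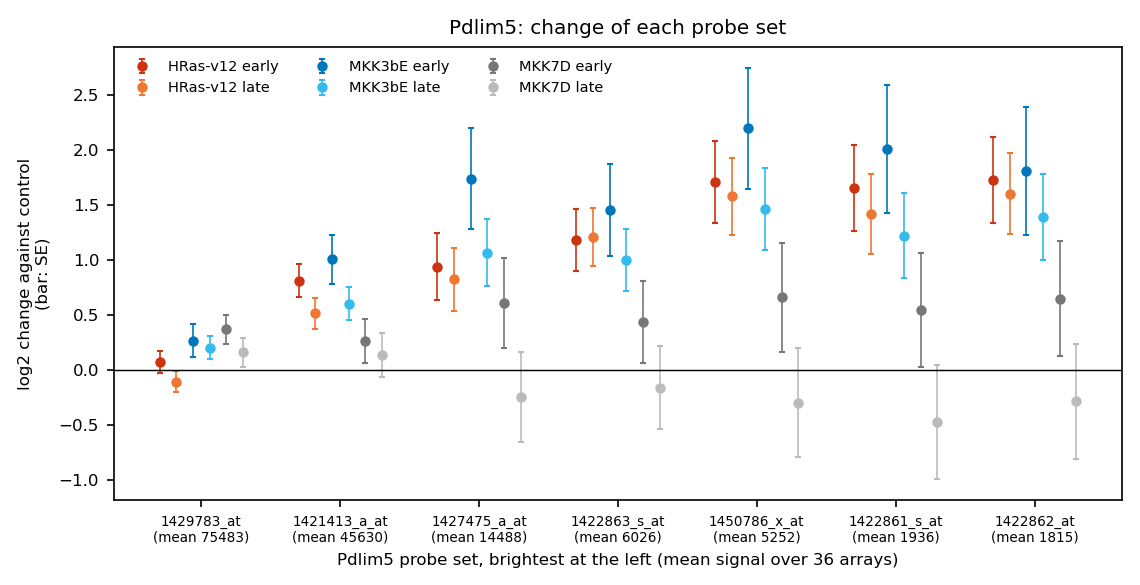
Log2 change against control of 7 Pdlim5 probe sets in 6 comparisons, as points with bars of 1 standard error. The brightest probe set, 1429783_at, lies between -0.11 and 0.37 in all 6 comparisons, while the other 6 lie between 0.81 and 1.72 in HRas-v12 early hearts.

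Other members also had more than 1 probe set. Of the 36 further member probe sets, in 14 genes, 13 were called higher and 10 lower in HRas-v12 early hearts, the Pdlim5 ones included, against 12.9% and 15.3% of all probe sets. These counts were 14 and 12 without the 6 arrays in doubt. All 5 further Ttn probe sets were called lower there, with changes of -1.10 to -0.57. The Tpm1 probe set 1423721_at rose by 0.78 (adjusted p 0.0118) where the brightest Tpm1 probe set fell by 0.56. The Nebl probe set 1451846_at rose by 1.15 in HRas-v12 late hearts (adjusted p 0.0161) while the brightest one was not called. The Synpo2l probe set 1428295_at rose in MKK3bE hearts by 2.77 early and 2.21 late (adjusted p 0.00352 and 0.000388), the same direction as the brightest. The Des probe set 1426732_at was not called in MKK3bE hearts, at 0.26 and 0.02, but rose by 0.74 in HRas-v12 early hearts (adjusted p 0.0347). For 36 calls of members against control, 19 concerned a gene with a further probe set, and 3 of these 44 further values had the opposite sign.

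A list of 39 other sarcomere genes gave 33 that passed the filter. In HRas-v12 early hearts 13 of them fell and 4 rose, with a median change of -0.43, and without the 6 arrays in doubt 16 fell and 6 rose. Tcap, the titin cap protein telethonin, fell by 2.00 (adjusted p 4.16e-07) and Fhl2, a LIM protein bound to titin, fell by 1.21 (adjusted p 3.01e-05). Myh6, the adult alpha myosin heavy chain, fell by 0.55 (adjusted p 0.000221), while Actn1, the non-muscle alpha-actinin, rose by 1.97 (adjusted p 7.99e-05). In HRas-v12 late hearts 8 fell and 1 rose, and without the 6 arrays in doubt 1 fell and 0 rose in limma. Smyd1, a methyltransferase of muscle, fell by 0.53 (adjusted p 0.0167) and Tmod4, a tropomodulin of skeletal muscle, fell by 1.46 (adjusted p 0.0171). Actc1, cardiac actin, fell by 0.40 (adjusted p 0.0204) and Csrp3, the muscle LIM protein, fell by 0.54 (adjusted p 0.0204).

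In MKK3bE hearts 3 of these 33 rose and 1 fell at each time. The 4 genes were the same at both times, Mylk4, Pdlim1, Xirp1 and Myh7. Mylk4, a myosin light chain kinase, fell by 4.31 early (adjusted p 0.000459) and fell by 3.31 late (adjusted p 4.73e-05). Myh7, the slow beta myosin heavy chain of the fetal ventricle, rose by 1.78 early (adjusted p 0.0405) and by 1.66 late (adjusted p 0.00386). Pdlim1, a PDZ and LIM domain protein like Pdlim5, rose by 0.79 and 0.61 (adjusted p 0.0056 and 0.00113), and Xirp1, a protein of the intercalated disc, by 0.90 and 0.47 (adjusted p 0.00939 and 0.026). In MKK7D hearts limma called 0 of the 33, and an unadjusted p under 0.05 was reached by 6 early and 2 late. With the 6 arrays in doubt left out, 6 rose and 3 fell in MKK3bE early hearts and 7 rose and 5 fell in MKK3bE late hearts. In MKK7D hearts 1 rose and 1 fell early, and 6 rose and 1 fell late, with 1 control array left at the late time.

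Markers of other cells moved with the members in HRas-v12 early hearts. Fibroblast markers had 6 of 11 genes called higher and 0 lower, with summed signals of 230272 to 623916 in HRas-v12 early arrays and 220233 to 289703 in controls. Macrophage markers had 6 of 10 called higher and 0 lower, with sums of 60866 to 221415 in HRas-v12 early arrays and 62806 to 94482 in controls. Endothelial markers had 7 of 8 called lower and 0 higher, with sums of 33749 to 70855 in HRas-v12 early arrays and 53621 to 77599.7 in controls. In HRas-v12 late hearts 4 of 11 fibroblast markers were called higher, with sums of 209930 to 678646 in HRas-v12 late arrays, and 5 of 8 cardiac muscle markers were called lower, with sums of 904503 to 1123773. Macrophage markers had 1 of 10 called higher and 1 lower there, with sums of 52661 to 293510 in HRas-v12 late arrays and 62806 to 94482 in controls. Without the 6 arrays in doubt, 8 fibroblast and 9 macrophage markers were called higher and 8 endothelial and 7 cardiac muscle markers lower in HRas-v12 early hearts. In HRas-v12 late hearts limma then called 1 fibroblast marker higher and 0 macrophage, endothelial or cardiac muscle markers. The part of these lists in the fall of the contractile genes was not tested.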

How the data were processed

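Left ventricle RNA was measured on 36 arrays in 13 groups taken from the titles. The authors deposited linear probe set intensity values, which the submitters' processing notes credit to MAS5, with no version given in the sources used here. The deposited intensity values have 1 factor per array, since the mean with 2% left off at each end was 2500 on every array. Detection calls were not used. Array medians ran from 593.5 to 798.6, and correlations between arrays from 0.834 to 0.974.

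Of 45101 probe sets, 34958 had 1 gene symbol, 932 several and 9211 none in the platform annotation, and 34754 symbols were updated through the gene number. The 64 control probe sets were left out. Values were taken as log2(signal + 32), which understates the change of dim genes. Kept were the 60% of probe sets with the highest mean log2 values (a signal of about 414.3), 27022 in all. The brightest of each gene gave 12626 genes. limma 3.58.1 under R 4.3.3 fitted 13 group means with eBayes and an intensity trend (23 residual and 4.61 prior degrees of freedom), tested on simulated data first. There were 14 comparisons. p-values were adjusted by Benjamini-Hochberg over all genes, and all p-values are from limma.

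The members, the lists and the alternatives were chosen with earlier results of these data known. Values per array are given for at most 8 members with the smallest adjusted p in a comparison against control and for fetal, slow or skeletal isoforms that passed the filter. At most 4 other sarcomere genes are named in a comparison, those with the smallest adjusted p. Alternatives were another pseudocount, no filter, no intensity trend, quantile normalization, other choices of probe set, a replicate block, fits to the groups compared alone, each array left out and the arrays in doubt left out. Promoter sequences are from RefSeq, GRCm38.p6.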

Additional observations from a re-analysis of the deposited data

Results flagged for a closer look

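In groups of 4 to 10 arrays, a single array stood far from the others in 6 of 116 groups of member signals tested, where chance gives about 1 in 20. HRas-v12 female early replicate 3 had a Tnni3 signal of 147739 where the other 4 HRas-v12 early arrays had 91695 to 104095, and a Pdlim3 signal of 12497 where they had 2985 to 4134. HRas-v12 male late replicate 3 had a Mypn signal of 13909.5, below the 17943.5 to 20889 of the other 5. Control female replicate 4 had the highest Tnni3 signal of its group, 202633 against 155126 to 170542, and the highest Tnnc1 signal, 187995 against 150451 to 160915. Control male replicate 1 had a Myom2 signal of 75734, below the 111404 to 131635 of the other controls. Both HRas-v12 arrays are among those whose Esr1 signal went against the label.

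Differences between the changes of 2 groups, each tested within the limma fit, passed the threshold for 14 values. Between the late and early times of HRas-v12 hearts these were Lmod2 at 0.65, Cmya5 at 0.68, Myom1 at 0.42 and Flnc at -0.76. Between HRas-v12 and MKK3bE hearts at the early time they were Synpo2l at -2.11, Flnc at -1.29, Ldb3 at -0.79 and Des at -0.75. At the late time they were Synpo2l at -1.64, Nrap at -0.96, Flnc at -0.79, Lmod2 at -0.48 and Des at -0.41. Between the sexes in HRas-v12 early hearts it was Flnc at 1.88, and this value rests on females of which 1 is the array in doubt.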

How the results depend on the processing

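Counts are of members called among those tested in limma. Without the 6 arrays in doubt, an alternative added after the data were seen, they were 21 for HRas-v12 early, 0 for HRas-v12 late, 8 and 7 for MKK3bE early and late, 1 and 3 for MKK7D early and late, 16 between the HRas-v12 times, 13 and 5 between the lines early and late, and 0 and 1 between the sexes in HRas-v12 hearts early and late. Fits to the groups compared alone gave 0 for HRas-v12 late, 9 and 8 for MKK3bE, 1 for MKK7D early, 0 between the HRas-v12 times, 0 and 2 between the lines, and 0 between the sexes early. With quantile normalization the counts were 0 for HRas-v12 late, 9 between the HRas-v12 times, 3 between the lines late and 2 between the sexes early. Without the filter HRas-v12 late had 4, and with the mean of a gene's probe sets the early comparison of the lines had 2. With 1 array left out at a time the counts ran over 13 to 21 for HRas-v12 early, 0 to 14 for HRas-v12 late, 1 to 3 for MKK3bE at each time, 0 to 1 for MKK7D early, 0 to 13 between the HRas-v12 times, 1 to 6 and 1 to 7 between the lines early and late, and 0 to 6 between the sexes early. Single values that changed sign were Tnnt2 at 0.054 early and 0.012 late and Actn2 at 0.014 late in HRas-v12 hearts, with quantile normalization, and Ldb3 at 0.0033 between the lines early, with the brightest probe set by mean signal. Myl2, Mybpc3, Ttn, Myom1, Lmod2, Actn2, Myoz2 and Cmya5 in HRas-v12 early hearts and Synpo2l in MKK3bE hearts at both times kept their call under every alternative run. The lowest counts for HRas-v12 early and between the HRas-v12 times came from the fit without HRas-v12 female early replicate 1. That fit leaves replicate 3, in doubt, as the only early female. The causes were not tested beyond the construction of each alternative.

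Groups share replicate numbers in the labels. Of 23 same-numbered pairs, 4 had correlated deviations over 0.1, with a range of -0.343 to 0.125. The labels do not say what a shared number means, and these values from groups of 2 or 3 arrays cannot decide it. With the number as a replicate block (16 residual degrees of freedom) the counts were 6 for HRas-v12 late, 0 between the HRas-v12 times, 2 between the lines early, 0 between the sexes early and 19 for HRas-v12 early. Of the Pdlim5 probe sets, 4 early and 5 late calls in MKK3bE hearts and 1 early and 2 late calls in HRas-v12 hearts were lost with it. The MKK7D groups share no numbers, and no block could be fitted there. The number of arrays, 2 or 3 a group, limits all calls.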
